A study of Homo sapiens with 15 samples.

Results

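BAQ13 NPs were compared with Lys05, the parent autophagy inhibitor, in MIA PaCa-2 cells, an established human pancreatic carcinoma line. Lys05 is a bisaminoquinoline, in which a pair of chloroquine-type heads is joined into 1 molecule. BAQ13 combines this head with the long hydrophobic tail of MSDH, a detergent that gathers in lysosomes, and assembles by itself into nanoparticles in water. The comparison rests on the 6 libraries titled BAQ13 or Lys05, 3 of each, out of 15 RNA-seq libraries in all. Both agents were given at 5 µM for 24 h, so concentration and time were matched, and a single pair of compounds was compared. In the paper's 24 h viability assay of this line, BAQ13 inhibited the cells at a lower concentration than Lys05. The match is therefore in concentration and not in effect on the cells, and the part of this in the differences below was not tested. A vehicle group of 3 libraries, treated for the same time, is shown for reference and entered the shared estimate of the spread. The remaining 6 libraries came from cells given BAQ12 or an agent labelled BAQ12O at the same dose, and their values appear only as levels. All groups used the same unmodified line, and no label says whether the 3 libraries of a group came from separate cultures, so the p-values measure the spread between these libraries, which may be technical.

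Chloroquine-type amines are trapped in acidic lysosomes, raise their pH and stop them from digesting the cargo that autophagy delivers. The lysosome is also where cholesterol taken up with low-density lipoprotein (LDL) is freed, and the NPC proteins then move it to the endoplasmic reticulum. When cholesterol there runs low, the escort of the transcription factor SREBP2 is no longer retained, and proteases then cut SREBP2 free. SREBP2 switches on the enzymes of cholesterol synthesis, while SREBP1 does the same for fatty acid synthesis. Oxysterols act in the opposite direction through the liver X receptors, which switch on the sterol exporters ABCA1 and ABCG1. A second lysosomal route runs through TFEB and TFE3, which enter the nucleus when mTORC1 is inactive and switch on genes of lysosomes and autophagy through E-box sequences.

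The values are normalised read counts, that is, reads on a gene scaled by library with size factors. Between 1948633 and 2230594 reads lay on genes in the Lys05 libraries and between 2285995 and 2497422 in the BAQ13 libraries. A floor of 3 reads, which covers counting error only, equals 2.49 to 4.14 normalised counts over the 15 libraries. Marker genes were checked first. The epithelial and ductal genes KRT8, KRT18, KRT19 and SOX9 and the mesenchymal genes VIM and ZEB1 were present in all 9 libraries of vehicle, Lys05 and BAQ13, whereas EPCAM was at 0 in all 9 and CDH1, KRT7, CDH2 and FN1 did not reach the filter on low counts. All 6 markers of acinar and endocrine pancreas were at 0 in these libraries, and none of 8 immune, fibroblast and endothelial markers passed the filter. Their summed level was 1.06 to 4.67 normalised counts in the Lys05 libraries and 4.67 to 5.47 in the BAQ13 libraries. KRT8 was lower with BAQ13 (175, 178 and 199 normalised counts) than with Lys05 (248, 267 and 245), a log2 difference of -0.46 with an adjusted p = 0.0029 (limma), and KRT18, KRT19 and SOX9 did not pass. The part of this difference in the other results was not tested.

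Of 10196 genes with enough reads, 666 differed between BAQ13 and Lys05 at an adjusted p below 0.05 (limma on log2 of the normalised count plus 1, Benjamini-Hochberg adjustment over all genes tested), which is 6.53% of the genes tested. Of these, 379 (3.72%) were higher and 287 (2.81%) lower with BAQ13 NPs. Counts in the gene lists below stand against these shares. In 657 of the 666 genes (6.44% of those tested) the 3 BAQ13 libraries lay wholly above or below the 3 Lys05 libraries, which was so for 24.1% of all genes tested. The median log2 difference was -0.004 over all genes and 0.558 in size over the genes called, so most differences were under 2-fold. Differences on this scale understate the change of genes with few reads. At the study's own threshold, a fold of at least 2 with an unadjusted p of at most 0.05, 132 genes (1.29%) differed, 93 of them higher (0.912%) and 39 lower (0.383%). Single libraries moved the number of adjusted calls: it was 349 without Lys05 replicate 1, 317 without Lys05 replicate 2, 402 without BAQ13 replicate 2 and 1153 without BAQ13 replicate 3. In such bulk libraries, fewer cells expressing a gene and less of its RNA per cell cannot be told apart.

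**Figure D1:**
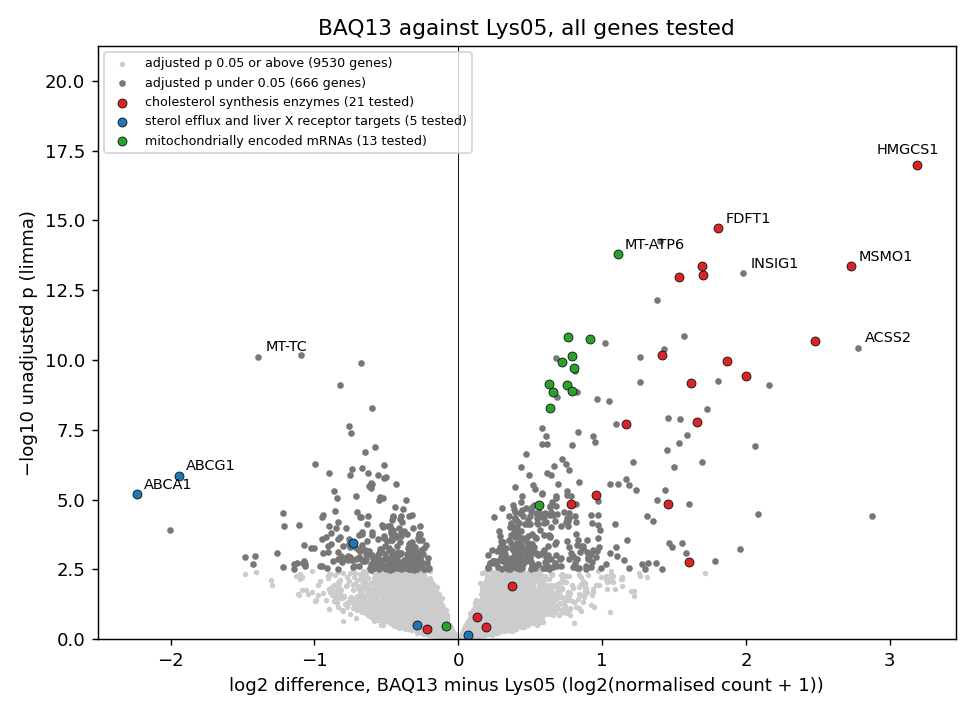
Each point is 1 of the 10196 genes tested, with the log2 difference of BAQ13 minus Lys05 on the x axis and −log10 of the unadjusted limma p on the y axis; dark points are the 666 genes with an adjusted p below 0.05. The cholesterol synthesis enzymes (red) spread to the right as far as HMGCS1 at 3.19, the mitochondrially encoded mRNAs (green) form a column between 0.56 and 1.11 apart from MT-ND6, and ABCA1 and ABCG1 (blue), with RP3-368A4.5 (grey, not labelled) between them, lie farthest to the left.

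The vehicle libraries were placed beside these genes as levels, with no test. Among the 379 genes higher with BAQ13 NPs, the vehicle mean was at or below the Lys05 mean for 236, between the Lys05 and BAQ13 means for 129, and at or above the BAQ13 mean for 14. Of the last 14, 12 were mitochondrially encoded mRNAs. Among the 287 lower genes, the vehicle mean was at or above the Lys05 mean for 138, between both means for 144, and at or below the BAQ13 mean for 5.

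Cholesterol synthesis held 6 of the 15 largest rises. Of the 8 enzymes described that lead from acetyl-CoA to isoprenoids, 6 rose and none fell, with a median log2 difference of 1.66. Of the 13 that lead from squalene to cholesterol, 11 rose and none fell, with a median of 1.54. HMGCS1, the synthase that makes HMG-CoA (chr5:43289395-43313512, minus strand in GRCh38), stood at 545, 629.8 and 657 normalised counts with BAQ13 NPs, at 62.8, 64.6 and 70.9 with Lys05 and at 59.8, 56.9 and 55.1 with vehicle. The BAQ13 libraries were thus far above the rest, while the Lys05 and vehicle libraries lay close together. The log2 difference between BAQ13 and Lys05 was 3.19 (SE 0.11, 95% confidence interval 2.96 to 3.41, adjusted p = 1e-13, limma), and the group means differed 9.24-fold. HMGCS1 reached 183, 152 and 71.6 with BAQ12 and 102, 103 and 91.0 with BAQ12O. Replicate 3 of BAQ12 was known from earlier results of these data to stand apart from its group.

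MVD, which decarboxylates mevalonate diphosphate, rose from 25.6, 27.1 and 32.7 to 181, 157 and 150.0, a log2 difference of 2.48 (SE 0.18, adjusted p = 1.6e-08). The isomerase IDI1 rose from 54.3, 37.5 and 40.1 to 134, 186 and 222 (2.00, adjusted p = 1.3e-07). FDPS, which joins the isoprenoid units to farnesyl diphosphate, rose by 1.70 (adjusted p = 7.4e-11), mevalonate kinase MVK by 1.62 (adjusted p = 2.1e-07) and the thiolase ACAT2 by 1.41 (adjusted p = 3.5e-08). In all 6, the libraries of both groups did not overlap. This was so for 24.1% of all genes tested but for 657 of the 666 genes called, so it adds little to the calls. Each of the 6 calls held without any 1 of the 9 libraries. PMVK, the kinase between MVK and MVD, stood apart from its neighbours at 31.7, 35.5 and 26.0 normalised counts against 25.6, 30.2 and 25.2, a log2 difference of 0.19 (95% confidence interval -0.24 to 0.62) that did not pass. GGPS1, which leads to protein prenylation and away from sterols, also missed the threshold at 0.37 (adjusted p = 0.11).

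**Figure D2:**
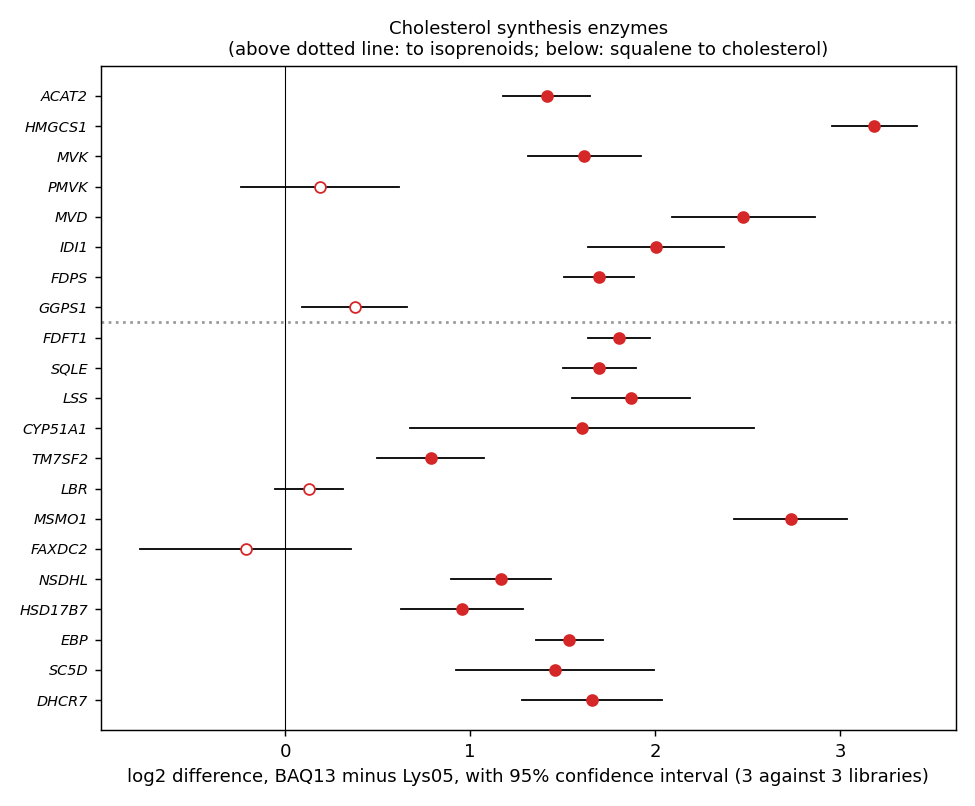
Log2 differences of BAQ13 minus Lys05 (x axis, 95% confidence interval as bars, 3 against 3 libraries) for 21 cholesterol synthesis enzymes, in pathway order from top to bottom; filled points have an adjusted p below 0.05. The filled points run from 0.79 (TM7SF2) to 3.19 (HMGCS1), and the 4 open points, PMVK, GGPS1, LBR and FAXDC2, lie between -0.21 and 0.37.

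After farnesyl diphosphate, the first committed enzymes rose by similar amounts. FDFT1, which makes squalene, was at 803, 887 and 878 normalised counts with BAQ13 NPs against 250.2, 248 and 234 with Lys05 (1.80, adjusted p = 9.5e-12). Its neighbours SQLE, the squalene epoxidase, and LSS, the lanosterol synthase, differed by 1.70 and 1.87 (adjusted p = 1.2e-10 and 4.5e-08). MSMO1, the oxidase that removes methyl groups from lanosterol derivatives (chr4:165327623-165343160, plus strand), showed the widest gap of this branch. Its values were 488, 472 and 448 with BAQ13 NPs, 82.0, 73.9 and 56.0 with Lys05 and 69.7, 51.4 and 75.3 with vehicle, and its log2 difference was 2.73 (SE 0.15, adjusted p = 7.4e-11). The later enzymes EBP (1.54), DHCR7 (1.66), SC5D (1.46), NSDHL (1.17) and HSD17B7 (0.95) rose too, with adjusted p from 1.2e-10 to 0.0011. CYP51A1, the lanosterol demethylase, had few reads (23.3, 30.1 and 16.8 against 2.13, 12.5 and 10.3 normalised counts). Its log2 difference of 1.61 passed with an adjusted p = 0.034 and was lost without vehicle replicate 2, Lys05 replicate 1 or BAQ13 replicate 2 (adjusted p up to 0.18). A contrast was seen at the sterol C14 reductases, which share a reaction: TM7SF2 rose from 63.9, 59.4 and 60.7 to 93.3, 116 and 111 (0.79, adjusted p = 0.0012), while LBR, which also holds the nuclear lamina to the membrane, stood at 0.13 (adjusted p = 0.43). Whether the difference between the pair itself passes was not tested.

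The regulators of SREBP moved unevenly, with 2 of 10 tested higher and 1 lower. INSIG1, the membrane anchor that retains the SREBP escort when sterol is plentiful and is itself an SREBP target, was at 467, 541 and 602 normalised counts with BAQ13 NPs, 145, 126 and 133 with Lys05 and 108, 132 and 123 with vehicle. The BAQ13 libraries lay wholly above the others, and the log2 difference was 1.98 (SE 0.11, adjusted p = 1.1e-10). SREBF2, which encodes SREBP2, rose by 0.39 (adjusted p = 0.029), and SREBF1, which encodes SREBP1, fell from 53.2, 42.7 and 62.5 to 29.9, 34.6 and 34.4, a log2 difference of -0.65 (adjusted p = 0.031). The calls of SREBF2 and SREBF1 were lost when 1 of several libraries was left out, among them Lys05 replicates 1 and 3 and BAQ13 replicate 2, with adjusted p up to 0.14 and 0.15. The proteases MBTPS1 and MBTPS2, which cut SREBP free, did not pass (-0.17 and -0.25, adjusted p = 0.27 and 0.29).

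Genes of cholesterol uptake and lysosomal exit showed smaller differences. Of 10 listed genes, 8 were tested, 2 rose and 1 fell. NPC2, the soluble lysosomal protein that hands cholesterol to NPC1, rose from 200.2, 255 and 231 to 424, 353 and 334 normalised counts (0.69, adjusted p = 0.00029). LRP8, a lipoprotein receptor, rose by 0.42 (adjusted p = 0.03), a call that was lost without any 1 of the Lys05 libraries and without BAQ13 replicate 1 or 2 (up to 0.11). MYLIP, a ubiquitin ligase and liver X receptor target, fell from 43.7, 56.2 and 48.5 to 33.6, 30.1 and 26.8 (-0.69, adjusted p = 0.017), which was lost without Lys05 replicate 2 or BAQ13 replicate 2 (up to 0.1). LIPA, the acid lipase that frees cholesterol from LDL, gave 0.06 (95% confidence interval -0.10 to 0.21) and did not pass.

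Sterol exporters were lower with BAQ13 NPs. Of 8 listed genes of efflux and liver X receptor control, 5 had enough reads, and 3 of them fell while none rose. The count was 1 with DESeq2 and with at least 10 reads in every library. The median log2 difference of -0.731 became -0.288 with that stricter filter, which left 3 genes, and -0.16 with no filter, when all 8 were tested. ABCA1, which loads cholesterol onto apolipoprotein A-I (chr9:104781002-104928237, minus strand), stood at 1.87, 1.82 and 3.35 normalised counts with BAQ13 NPs, 10.6, 18.7 and 14.9 with Lys05 and 10.8, 8.93 and 9.18 with vehicle. ABCA1 passed the filter through the groups where it is higher: it had 8 reads in all with BAQ13 NPs and 44 with Lys05, a ratio of 0.161 with a 95% counting interval of 0.0653 to 0.345. The log2 difference was -2.23 (SE 0.37, adjusted p = 0.00058, limma). ABCG1, the exporter to larger lipoproteins (chr21:42199689-42297244, plus strand), showed the same order, with 7.47, 7.29 and 3.35 against 25.6, 28.1 and 21.5 normalised counts and vehicle at 23.2, 23.4 and 25.7. Its log2 difference was -1.94 (SE 0.29, adjusted p = 0.00016). ABCG1, too, could not have passed the filter through its BAQ13 libraries. LPCAT3, an acyltransferase that remodels phospholipids and is a further liver X receptor target, fell by 0.73 on the log2 scale (adjusted p = 0.012), which was lost without Lys05 replicate 1 or BAQ13 replicate 2 (up to 0.098). The receptor NR1H2 gave -0.29 (adjusted p = 0.62), and PLTP gave 0.06 (adjusted p = 0.88).

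Fatty acid synthesis rose beside the sterol pathway, with 10 of 17 genes tested higher, none lower and a median log2 difference of 0.638. ACSS2, which makes acetyl-CoA from acetate (chr20:34872146-34927962, plus strand), was at 183, 159 and 161 normalised counts with BAQ13 NPs, 26.6, 18.7 and 26.1 with Lys05 and 15.8, 30.1 and 29.4 with vehicle, a log2 difference of 2.78 (SE 0.21, adjusted p = 2.3e-08). ACLY, which makes acetyl-CoA from citrate, rose from 333, 309 and 316 to 637, 823 and 867 (1.26, adjusted p = 3.5e-08). FASN, the fatty acid synthase, rose from 626, 624 and 684 to 1794, 1634 and 1696 with vehicle at 496, 495 and 506 (1.40, adjusted p = 1.8e-11). Further along, the elongase ELOVL6 rose by 1.45, the lipid phosphatase LPIN1 by 0.82, the desaturase SCD by 0.68 and the desaturase FADS1 by 0.49 on the log2 scale. Each of these passed (adjusted p = 2.7e-05, 3.7e-07, 3.6e-08 and 0.018 in this order), and FADS1 alone lost its call without Lys05 replicate 1 or 2 (up to 0.11). ACACA, the carboxylase that commits acetyl-CoA to the pathway, was at 0.35 (adjusted p = 0.067), and ELOVL5 and ACSL3 were at 0.06 and 0.02 (adjusted p = 0.69 and 0.92).

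**Figure D3:**
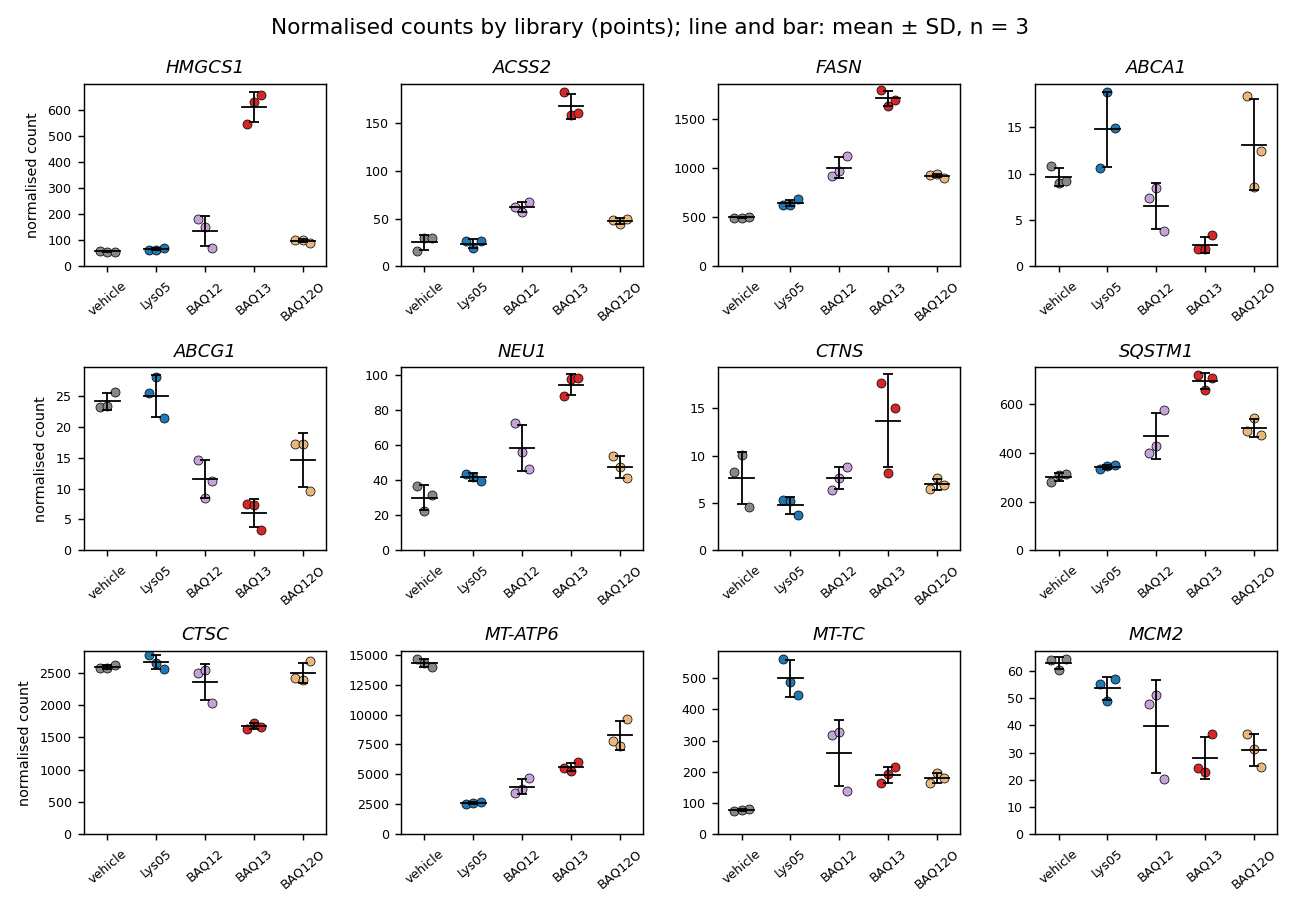
Normalised counts (y axes, each starting at 0) of 12 genes in the 15 libraries, grouped by treatment on the x axis; points are libraries, and the line and bar show the mean ± SD of 3. For HMGCS1, ACSS2 and FASN the BAQ13 points lie above those of every other group, for ABCA1 and CTSC below every other group, and for MT-ATP6 between the Lys05 points and the vehicle points.

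The sequence upstream of these genes was read from the RefSeq promoter table (GRCh38.p14), using the 250 bases before each RefSeq start. There were 35116 such windows for 27305 genes. A gene was counted as holding a motif if any of its windows did, so genes with several windows had more chances. The letters CCAAT, the core of the box bound by NF-Y, a factor known to work beside SREBP, were searched on both strands (the other strand reads ATTGG). Of the 17 sterol enzymes that rose, 14 had a window in the table, and 13 of these held CCAAT, against 42.2% of the 7589 genes tested that had a window and 37% of all 27305 genes with one. CYP51A1 was the exception. The classical sterol regulatory element, searched as TCACNCCAC on both strands, was held by none of the 14 genes. It was held by 1.24% of genes tested that had a window. These are counts of letters in a fixed window, given without a test. The stretches below show CCAAT in capitals for HMGCS1, MSMO1 and MVD, the enzymes with the widest gaps, and for INSIG1, their regulator. Where a gene had several windows, the one with the most kinds of motif was taken. Bases of a window that lay inside the annotated gene were left out. Each is printed 5′ to 3′ on the gene's own strand and ends before the outermost annotated gene start, at chr5:43313513-43313662 (minus strand) for HMGCS1, chr4:165327419-165327622 (plus strand) for MSMO1, chr16:88663162-88663341 (minus strand) for MVD and chr7:155297628-155297775 (plus strand) for INSIG1.
HMGCS1: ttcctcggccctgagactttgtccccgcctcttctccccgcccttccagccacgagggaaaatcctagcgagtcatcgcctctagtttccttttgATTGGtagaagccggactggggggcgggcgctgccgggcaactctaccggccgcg
MSMO1: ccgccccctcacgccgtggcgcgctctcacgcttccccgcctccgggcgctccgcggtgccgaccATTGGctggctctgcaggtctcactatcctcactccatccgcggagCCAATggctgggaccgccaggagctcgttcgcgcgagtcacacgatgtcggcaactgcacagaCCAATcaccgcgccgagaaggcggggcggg
MVD: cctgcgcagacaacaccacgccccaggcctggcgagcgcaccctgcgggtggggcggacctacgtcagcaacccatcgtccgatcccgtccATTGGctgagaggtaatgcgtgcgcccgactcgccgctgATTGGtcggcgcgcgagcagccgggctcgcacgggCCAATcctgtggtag
INSIG1: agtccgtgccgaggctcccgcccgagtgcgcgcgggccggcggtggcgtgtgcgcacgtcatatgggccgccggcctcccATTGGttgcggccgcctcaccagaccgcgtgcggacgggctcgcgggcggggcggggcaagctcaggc

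Among subunits of the V-ATPase, the pump that acidifies lysosomes, 17 of 25 had enough reads, 4 rose, none fell and the median log2 difference was 0.246. ATP6AP1, an accessory subunit, rose from 136, 143 and 190.4 to 264, 257 and 207 normalised counts (0.64, adjusted p = 0.0085), with Lys05 replicate 3 near the lowest BAQ13 library. The call was lost without Lys05 replicate 1, Lys05 replicate 2 or BAQ13 replicate 2 (up to 0.072). ATP6V1G1, a subunit of the stalk, rose from 445, 431 and 384 to 522, 538 and 611 (0.41, adjusted p = 0.0064). ATP6V1E1, also of the stalk, rose by 0.42 (adjusted p = 0.027) and the membrane subunit ATP6V0E1 by 0.28 (adjusted p = 0.044), and both lost their calls without BAQ13 replicate 2 or 3 or any 1 of the Lys05 libraries (up to 0.12 and 0.21); ATP6V0E1 also lost its call without any 1 vehicle library. ATP6V0D1 was at 45.7, 46.5 and 55.3 with BAQ13 NPs, 33.0, 32.3 and 38.3 with Lys05 and 36.5, 19.0 and 18.4 with vehicle, and its difference from Lys05 of 0.50 (95% confidence interval 0.02 to 0.97) did not pass (adjusted p = 0.22).

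None of the 10 endolysosomal ion channels and transporters tested, of 14 listed, passed by limma, edgeR or DESeq2, 2 had an unadjusted limma p below 0.05, and the median log2 difference was 0.0271. Without BAQ13 replicate 3, 1 was higher. The chloride-proton exchangers CLCN5 and CLCN7 were at 0.57 (95% confidence interval 0.20 to 0.95) and 0.49 (-0.01 to 1.00), and CLCN6 at 0.34 (-0.25 to 0.94). These intervals reach about 1 on the log2 scale, so that a 2-fold difference between the agents lay near their upper ends. In CLCN5 the libraries of both groups did not overlap (60.7, 53.8 and 52.0 against 43.7, 32.3 and 35.5 normalised counts), yet its adjusted p was 0.063. CLCN3, which had more reads, gave a narrower 0.04 (95% confidence interval -0.19 to 0.26).

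Among cathepsins, other lysosomal peptidases and cystatins, 13 of 20 were tested, 4 rose and 2 fell. CTSC, the dipeptidyl peptidase that activates granule proteases (chr11:88293592-88337787, minus strand), fell from 2781, 2665 and 2569.8 to 1632, 1726 and 1664 normalised counts, with vehicle at 2579, 2577 and 2625. All 3 BAQ13 libraries lay below the other 6, and the log2 difference was -0.67 (SE 0.056, adjusted p = 5.1e-08). CTSB, a cysteine cathepsin, also fell, from 282, 271 and 265 to 215, 206 and 199 (-0.40, adjusted p = 0.0067). The aspartic protease CTSD rose by 0.38, the tripeptidyl peptidase TPP1 by 0.54 and the cytosolic cathepsin inhibitor CSTB by 0.53 on the log2 scale (adjusted p = 0.016, 0.002 and 0.021). The calls of CTSD and CSTB were lost without Lys05 replicate 1 or BAQ13 replicate 2, among others (up to 0.097 and 0.099), and that of TPP1 held without any 1 library. CTSL stood at 122, 191 and 198 with BAQ13 NPs and at 220.4, 217 and 174 with Lys05 and did not pass, the BAQ13 replicate 1 value being apart from the other 2.

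Of 4 genes of sialic acid export and of the complex that releases sialic acid from glycoproteins, 3 were higher with BAQ13 NPs. NEU1, the sialidase (chr6:31857659-31862906, minus strand), was at 87.7, 97.5 and 98.1 normalised counts with BAQ13 NPs, 43.7, 41.7 and 39.2 with Lys05 and 36.5, 22.3 and 31.2 with vehicle. The groups did not overlap, and the log2 difference was 1.17 (SE 0.17, adjusted p = 0.0002). SLC17A5, which exports the freed sialic acid, rose from 93.7, 85.4 and 98.0 to 177, 175 and 186 (0.95, adjusted p = 1.5e-05). CTSA, the protective protein that holds NEU1 in the complex, rose by 0.53 (adjusted p = 0.015, lost without Lys05 replicate 1 or BAQ13 replicate 2, up to 0.12). The galactosidase GLB1 of the same complex gave 0.09 (95% confidence interval -0.21 to 0.39).

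Among 11 sphingolipid hydrolases and activators tested of 12, 3 rose. GM2A, the activator that presents ganglioside to its hydrolase, rose from 82.0, 64.6 and 76.5 to 139, 135 and 127 normalised counts (0.84, adjusted p = 0.00026). SMPD1, the acid sphingomyelinase, was at 24.3, 29.2 and 21.0 against 11.7, 13.5 and 12.1 (0.93, adjusted p = 0.033), and ASAH1, the acid ceramidase, at 56.9, 51.0 and 51.1 against 41.5, 30.2 and 26.1 (0.71, adjusted p = 0.029). SMPD1 and ASAH1 had few reads, and their calls were lost without Lys05 replicate 2 or 3 or BAQ13 replicate 1 or 2 (up to 0.15 and 0.13), SMPD1 also without Lys05 replicate 1. None of 14 glycan and glycosaminoglycan hydrolases tested of 18 passed by limma, edgeR or DESeq2, and 1 had an unadjusted limma p below 0.05. Without Lys05 replicate 3, 1 was higher. PSAP, the precursor of the saposins, gave 0.16 (95% confidence interval 0.02 to 0.30).

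Of 13 lysosomal membrane proteins tested of 17, 4 rose and none fell. LAMP2, which lines the lysosomal membrane and serves chaperone-mediated autophagy, rose from 309.9, 319.7 and 291 to 381, 409 and 397 normalised counts (0.37, adjusted p = 0.0073), with vehicle at 266, 278 and 267. LAMP1 gave 0.10 (95% confidence interval -0.12 to 0.33) and did not pass (adjusted p = 0.64). CTNS, the cystine exporter, had the widest gap of the list at 1.30 (adjusted p = 0.048). It rested on low values, 17.7, 8.20 and 15.1 against 5.32, 5.21 and 3.73, and lost its call without any 1 Lys05 library, without BAQ13 replicate 1 or 3 and without vehicle replicate 1 or 2 (up to 0.16). The tetraspanin CD63 rose by 0.35 and TMEM192 by 0.49 (adjusted p = 0.0098 and 0.016), CD63 losing its call without Lys05 replicate 2 or BAQ13 replicate 2 (up to 0.071) and TMEM192 without Lys05 replicate 1 or 3 (up to 0.089). Of 9 genes of mannose 6-phosphate sorting, which brings hydrolases to the lysosome, only M6PR passed (0.35, adjusted p = 0.048, lost without any 1 library other than BAQ13 replicate 1, up to 0.17). In the list of damage sensing and ESCRT repair, 16 of 18 were tested and only CHMP2B, an ESCRT-III subunit, passed (0.48, adjusted p = 0.008). This share of 6.25% was near the 6.53% of all genes tested. LGALS3, whose protein gathers on ruptured lysosomes, gave 0.11 (95% confidence interval -0.04 to 0.25).

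Regulators of mTORC1 at the lysosome and of TFEB were higher in part, with 4 of 16 tested of 19 higher and none lower. RRAGD, a Rag GTPase and TFEB target, rose from 138, 139 and 137 to 328, 265 and 269 normalised counts with vehicle at 120.4, 112 and 117, a log2 difference of 1.05 (SE 0.10, adjusted p = 6.8e-07). FNIP1, the partner of folliculin, rose from 211, 213 and 202 to 285, 288 and 282 (0.45, adjusted p = 0.0023). LAMTOR1, which anchors the Ragulator complex, rose by 0.42 (adjusted p = 0.0085, and 0.052 without Lys05 replicate 3). Folliculin itself, FLCN, rose by 0.51 (adjusted p = 0.047), and its call was lost without any 1 vehicle library, without Lys05 replicate 1 or 2 and without BAQ13 replicate 1 or 2 (up to 0.23). TFE3 gave 0.22 (95% confidence interval -0.04 to 0.49).

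Autophagy receptors rose for 2 of 12 tested of 14, while 4 were higher and 1 lower without BAQ13 replicate 3. SQSTM1 (p62), the receptor that is itself degraded by autophagy (chr5:179806398-179838078, plus strand), stood at 720.4, 659.9 and 709.9 normalised counts with BAQ13 NPs, 333, 345 and 349 with Lys05 and 282, 309 and 312 with vehicle. Its mRNA was thus 2.04-fold higher with BAQ13 NPs than with Lys05, a log2 difference of 1.02 (SE 0.077, adjusted p = 1.6e-08). OPTN, a receptor for damaged mitochondria and bacteria, rose from 198, 175 and 197 to 370.5, 333 and 315 (0.83, adjusted p = 7.4e-06). MAP1LC3B, which encodes LC3B, gave 0.32 (95% confidence interval 0.11 to 0.53) and NBR1 gave -0.24 (95% confidence interval -0.42 to -0.07), and neither passed. In the 28 genes of autophagosome initiation and conjugation, WIPI1, which binds the lipid of the nascent membrane, rose from 28.7, 27.1 and 35.5 to 60.7, 53.8 and 61.2 (0.93, adjusted p = 0.0036). VMP1 fell by 0.40 on the log2 scale (adjusted p = 0.021), lost without Lys05 replicate 1 or 2 (up to 0.14). The other 26 did not pass, and the share called, 7.14%, was near the 6.53% of all genes tested. Without BAQ13 replicate 3, 4 of the 28 were higher and 2 lower.

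The palindromic E-box CACGTG is bound by TFEB-family and other basic helix-loop-helix factors. Of the 18 lysosomal genes that rose, 14 had a window, and 6 of these held CACGTG (ATP6V1G1, CD63, CTSA, CTSD, M6PR and NEU1). The letters were held by 11.8% of genes tested that had a window and by 7.73% of all genes with one. The count was made without a test. NEU1 is shown because it had the widest gap among those 6. The stretch lies at chr6:31862907-31863071 (minus strand) and ends before the annotated gene start, with CACGTG and CCAAT in capitals.
NEU1: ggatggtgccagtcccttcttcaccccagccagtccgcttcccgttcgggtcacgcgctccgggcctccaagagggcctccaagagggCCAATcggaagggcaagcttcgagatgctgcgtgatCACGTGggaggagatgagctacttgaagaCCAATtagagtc

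**Figure D4:**
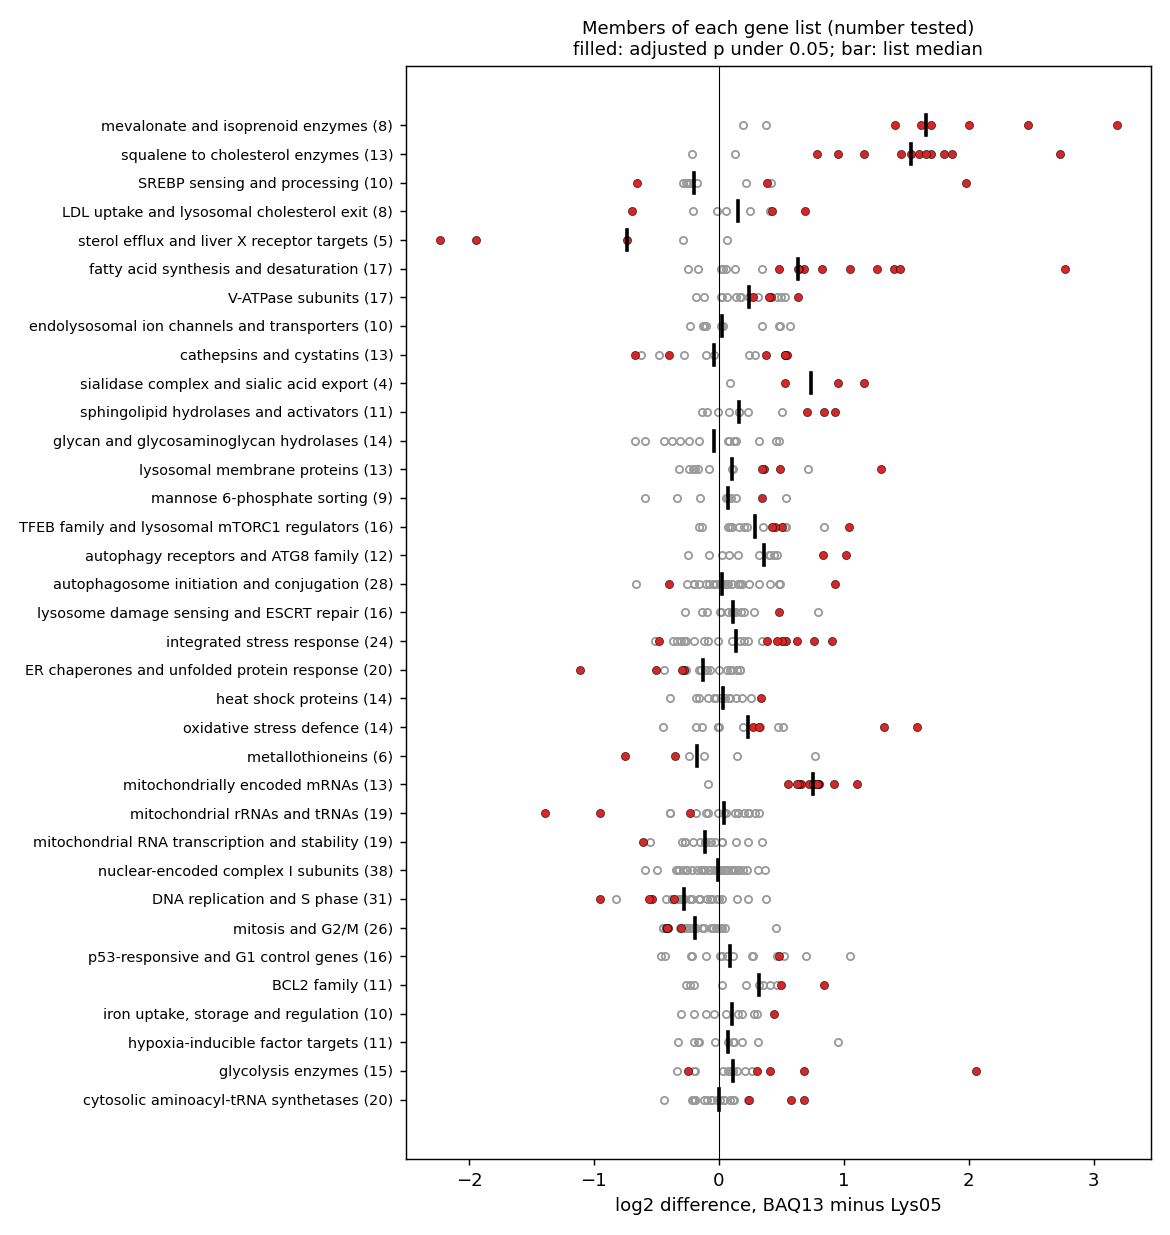
Log2 differences of BAQ13 minus Lys05 (x axis) for the members tested of 35 gene lists (rows, number tested in brackets); filled points have an adjusted p below 0.05 and the bar is the list median. The bars of both cholesterol synthesis lists (1.66 and 1.54) stand farthest to the right. Next come those of the mitochondrially encoded mRNAs (0.756), the sialidase complex with sialic acid export (0.739) and fatty acid synthesis (0.638). The bar of the 5 sterol efflux genes tested (-0.731) stands farthest to the left. The median of that list was -0.288 for the 3 with at least 10 reads in every library and -0.16 for all 8 with no filter.

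The integrated stress response, which ATF4 drives when amino acids, haem or protein folding fail, was higher for 7 of 24 genes tested of 30, with 1 lower. Without Lys05 replicate 1, 4 were higher, and 2 and 4 were lower without BAQ13 replicates 1 and 3. ATF4 itself was at 1651, 1397 and 1299 normalised counts with BAQ13 NPs against 1057, 1073 and 1186 with Lys05 and 1133, 1239 and 1135 with vehicle, a log2 difference of 0.39 (SE 0.079, adjusted p = 0.0045). The secreted stress factor GDF15 rose from 57.5, 68.7 and 69.1 to 118, 118 and 98.1 with vehicle at 42.3, 30.1 and 38.6 (0.76, adjusted p = 0.0042), and the transcription factor CEBPB rose by 0.47 (adjusted p = 0.0037). DDIT3 (CHOP) rose by 0.63, TRIB3 by 0.90, DDIT4 by 0.54 and SESN2 by 0.51 on the log2 scale (adjusted p = 0.043, 0.026, 0.021 and 0.013). These 4 each lost their call in 3 or more of 9 fits that left out 1 library (adjusted p up to 0.22 for DDIT3). SLC7A5, the amino acid transporter that ATF4 also controls, moved the other way, from 185, 168 and 185 to 123, 139 and 123 (-0.48, adjusted p = 0.0042). Among cytosolic aminoacyl-tRNA synthetases, 3 of 20 rose: WARS by 0.68, AARS by 0.58 and NARS by 0.24 (adjusted p = 0.0013, 5.5e-06 and 0.032), NARS losing its call in 7 of 9 fits that left out 1 library (up to 0.14).

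Of 20 genes of the unfolded protein response and of chaperones in the endoplasmic reticulum, none rose and 4 fell, with 2 lower without Lys05 replicate 2 and 7 without BAQ13 replicate 1. MANF, a secreted factor that the unfolded protein response induces, fell from 28.7, 39.6 and 29.9 to 14, 13.7 and 15.9 normalised counts (-1.11, adjusted p = 0.0039). The disulphide isomerase PDIA3 fell from 774, 853 and 774 to 522, 612 and 559.8 with vehicle at 817, 793 and 754 (-0.50, adjusted p = 0.00018). PDIA6 and HSP90B1 fell by 0.30 and 0.28 on the log2 scale (adjusted p = 0.015 and 0.0099), both lost without Lys05 replicate 1 or 2, PDIA6 also without Lys05 replicate 3 and HSP90B1 without BAQ13 replicate 2 (up to 0.076 and 0.061). HSPA5, the master chaperone of this compartment, gave -0.11 (95% confidence interval -0.23 to 0.01). Among 14 heat shock proteins tested of 15, only DNAJB1 passed (0.33, adjusted p = 0.016, lost without Lys05 replicate 1 or 2 or BAQ13 replicate 2, up to 0.1). That is 7.14% of the list, near the 6.53% of all genes tested.

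Of 14 oxidative stress genes, 4 rose and none fell. The number that rose was 2 with DESeq2 and 1 with only the 6 libraries compared or with all 15. With at least 10 reads in every library, 12 were tested and 3 rose. HMOX1, the haem oxygenase (chr22:35380361-35394214, plus strand), stood at 222, 164 and 127 normalised counts with BAQ13 NPs, 61.8, 40.6 and 65.3 with Lys05 and 47.3, 45.8 and 45.0 with vehicle. The BAQ13 libraries varied but lay wholly above the others, with a log2 difference of 1.59 (SE 0.19, adjusted p = 8.8e-06). OSGIN1 (1.32), TXN (0.32) and TXNRD1 (0.28) passed with adjusted p = 0.035, 0.022 and 0.031, each lost without Lys05 replicate 1 or 2, among others (up to 0.19, 0.093 and 0.18). NQO1 and GCLM gave -0.13 (95% confidence interval -0.28 to 0.01) and 0.0018 (95% confidence interval -0.13 to 0.14). Among iron genes, 10 of 12 were tested and only FTL, the ferritin light chain, passed, at 8704, 7167 and 6512 against 5412, 5419 and 5529 (0.44, adjusted p = 0.00064). TFRC, the transferrin receptor, gave -0.20 (95% confidence interval -0.42 to 0.02), and none of 11 hypoxia-inducible factor targets tested of 17 passed by limma, edgeR or DESeq2 (3 had an unadjusted limma p below 0.05). Of 6 metallothionein and zinc genes tested of 9, MT1A and MT1E fell (-0.75 and -0.35, adjusted p = 0.012 and 0.033), both lost without Lys05 replicate 1 or 2 and MT1E in 7 of 9 fits that left out 1 library (up to 0.082 and 0.19). The metallothionein genes are near-identical copies, so reads may be split between them.

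RNAs encoded in the mitochondrial genome separated the agents in both directions. Of 13 mRNAs, 12 were higher with BAQ13 NPs, with log2 differences of 0.56 to 1.11 and a median of 0.756, and each of the 12 calls held without any 1 library. MT-ATP6, a subunit of ATP synthase (chrM:8527-9207, plus strand), was at 5557, 5305 and 5993 normalised counts with BAQ13 NPs, 2482, 2636 and 2687 with Lys05 and 14683, 14288 and 13967 with vehicle. BAQ13 thus stood between both other groups, with a log2 difference from Lys05 of 1.11 (SE 0.056, adjusted p = 4.1e-11). The complex I subunit MT-ND2 showed the same order, with 3935, 3408 and 3149 against 1744, 1875 and 1909 and vehicle at 9324, 9403 and 9099.5 (0.92, adjusted p = 1.4e-08). As a share of reads on genes, the 13 mRNAs made up 5.93% to 6.1% in the vehicle libraries, 1.33% to 1.41% with Lys05 and 2.22% to 2.44% with BAQ13 NPs.

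MT-ND6, the 1 mRNA on the minus strand of the reference sequence, did not pass. It was at 1154, 997 and 884 with BAQ13 NPs, 1037, 1106 and 1064 with Lys05 and 563, 481 and 476 with vehicle, so both treated groups lay above vehicle while the difference between them was -0.09 (95% confidence interval -0.27 to 0.10). The tRNA MT-TC, on the same strand (chrM:5761-5826, minus strand), stood at 163, 193 and 214 with BAQ13 NPs, 562, 489 and 447 with Lys05 and 73.1, 78.2 and 79.9 with vehicle. The Lys05 libraries were the highest and the log2 difference was -1.39 (SE 0.11, adjusted p = 3.5e-08). MT-TS1, a further tRNA of that strand, fell from 63.9, 89.6 and 57.9 to 35.5, 29.2 and 42.7 (-0.95, adjusted p = 0.0093, lost without Lys05 replicate 2 or BAQ13 replicate 2, up to 0.096). Of 19 mitochondrial rRNAs and tRNAs tested of 24, 3 fell and none rose. This count rested on single libraries, with 7 lower without BAQ13 replicate 1, 1 lower without Lys05 replicate 2 or BAQ13 replicate 2, and 3 lower and 3 higher without BAQ13 replicate 3. The third was MT-RNR1, the small rRNA (-0.23, adjusted p = 0.013, lost without any 1 Lys05 library or BAQ13 replicate 2, up to 0.066), while MT-RNR2, the large rRNA, gave -0.004 (95% confidence interval -0.11 to 0.10). The rRNAs made up 14.5% to 14.8% of reads on genes with Lys05, 13.3% to 14.6% with BAQ13 NPs and 10.7% to 11.3% with vehicle. Neighbouring mitochondrial genes overlap and have copies in the nuclear genome, and the strand setting of the counting is not given in the sources used here, so their single values are less certain than those of nuclear genes. Of 38 complex I subunits encoded in the nucleus, none passed by limma, edgeR or DESeq2, 9 had an unadjusted limma p below 0.05, and the median was -0.0074, while 2 were higher and 4 lower without BAQ13 replicate 3. Of 19 factors of mitochondrial transcription and RNA stability tested of 20, only TFB1M passed (-0.60, adjusted p = 0.045, lost in 7 of 9 fits that left out 1 library, up to 0.22). That is 5.26% of the list, near the 6.53% of all genes tested.

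**Figure D5:**
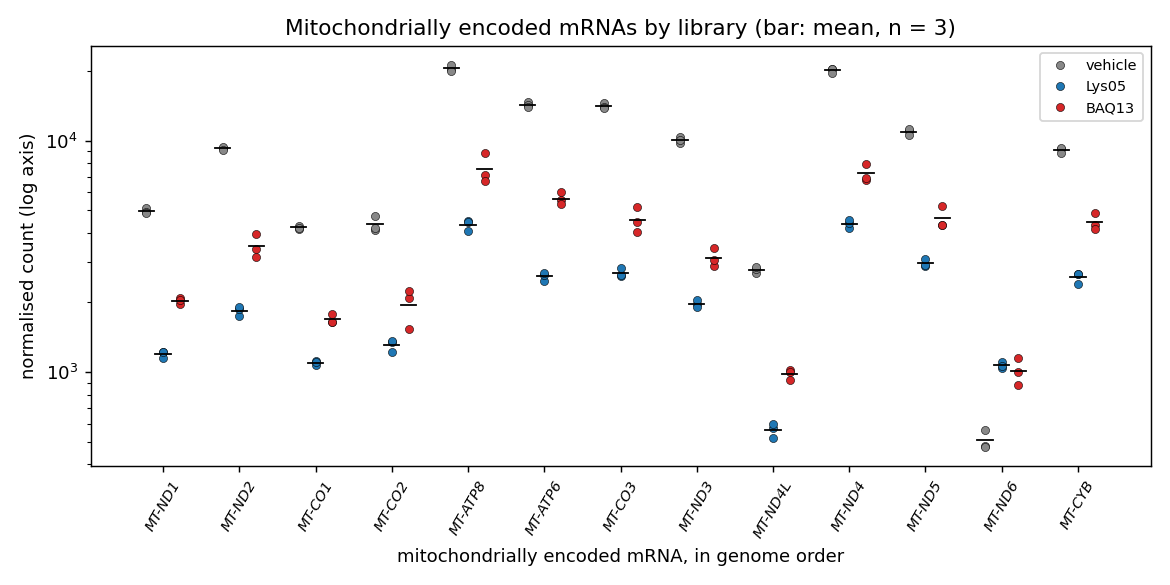
Normalised counts (log y axis) of the 13 mitochondrially encoded mRNAs in genome order, with 1 point per library for vehicle (grey), Lys05 (blue) and BAQ13 (red) and a bar at the mean of 3. For 12 mRNAs the red points lie between the blue and the grey ones, and for MT-ND6 the grey points are the lowest.

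Cell cycle genes were lower in part. Of 31 genes of DNA replication and S phase tested of 32, 4 fell and none rose, with a median log2 difference of -0.281. Without BAQ13 replicate 1 or 3, 8 fell. MCM2, a subunit of the replicative helicase, fell from 55.4, 48.9 and 56.9 to 24.3, 22.8 and 36.9 normalised counts with vehicle at 63.9, 60.3 and 64.3 (-0.95, adjusted p = 0.0024). PCNA, the sliding clamp, was at 89.6, 90.2 and 99.7 with BAQ13 NPs, 133, 147 and 126 with Lys05 and 180.2, 197 and 200.1 with vehicle (-0.53, adjusted p = 0.0038). GINS4 and RRM2 fell by 0.56 and 0.36 on the log2 scale (adjusted p = 0.0096 and 0.039), GINS4 losing its call without Lys05 replicate 3 (0.065) and RRM2 in 6 of 9 fits that left out 1 library (up to 0.19). In 26 genes of mitosis and G2/M, 4 fell and none rose, with a median of -0.189. This became 1 lower without Lys05 replicate 1 or 2, 2 without Lys05 replicate 3, vehicle replicate 3 or BAQ13 replicate 2, and 1 was higher without BAQ13 replicate 1. HMMR, a spindle protein, fell from 493, 486 and 452 to 372, 370.0 and 338 (-0.41, adjusted p = 0.0026), and CDK1, TTK and UBE2C fell by 0.42, 0.42 and 0.30 (adjusted p = 0.031, 0.023 and 0.036), each lost without Lys05 replicate 1 or 2, among others (up to 0.16, 0.13 and 0.15). The proliferation marker MKI67 gave -0.01 (95% confidence interval -0.15 to 0.13). Of 16 p53-responsive and G1 genes tested of 20, only GADD45A passed (0.48, adjusted p = 0.012, lost without Lys05 replicate 3 or BAQ13 replicate 2, up to 0.065). That is 6.25% of the list, near the 6.53% of all genes tested.

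Of 11 BCL2 family genes tested of 16, 2 rose. BBC3, which encodes PUMA, was at 635, 873 and 1017 normalised counts with BAQ13 NPs and 606, 619.6 and 535 with Lys05, a log2 difference of 0.50 (SE 0.12, adjusted p = 0.016) that was lost without Lys05 replicate 1, Lys05 replicate 3 or BAQ13 replicate 2 (up to 0.081). BAD rose from 22.4, 13.5 and 18.7 to 31.7, 34.6 and 31.8 (0.84, adjusted p = 0.045), lost without any 1 BAQ13 library and 4 others (up to 0.21). BAX, BAK1 and BCL2L11, which encodes BIM, gave 0.32 (95% confidence interval -0.04 to 0.68), 0.41 (95% confidence interval 0.01 to 0.81) and 0.36 (95% confidence interval -0.0046 to 0.72) and did not pass. BIRC3, an inhibitor of apoptosis outside this list, was among the largest rises, at 99.8, 111 and 106 against 27.7, 31.2 and 29.9 with vehicle at 24.1, 21.2 and 25.7 (1.80, adjusted p = 2e-07).

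Glycolysis enzymes moved singly, with 4 of 15 tested of 17 higher and 1 lower. ALDOC, the brain-type aldolase, rose from 25.6, 12.5 and 14.9 to 74.7, 85.7 and 62.0 normalised counts with vehicle at 10.8, 12.3 and 8.26 (2.06, adjusted p = 1.9e-05). Of 13 genes with a RefSeq window among the largest rises, ALDOC was the only 1 to hold TCACNCCAC. The letters were held by 1.24% of genes tested that had a window, and 1 gene is too few to compare with that share. ENO2 rose by 0.68, HK1 by 0.41 and ALDOA by 0.30 (adjusted p = 0.011, 0.045 and 0.047), and LDHA fell by 0.25 (adjusted p = 0.022). All 4 lost their calls without Lys05 replicate 1 or 2, HK1 in 7 and ALDOA in 8 of 9 fits that left out 1 library and LDHA also without Lys05 replicate 3 or BAQ13 replicate 2 (up to 0.096, 0.21, 0.18 and 0.1). GAPDH was at 7459, 5293 and 4285 with BAQ13 NPs, apart in replicate 1, and at 4533, 4437 and 4865 with Lys05, and did not pass (adjusted p = 0.2).

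Outside the lists, the 15 largest rises held 6 further genes, BIRC3 among them. PLA2G3, a secreted phospholipase A2, had 21.5, 21.9 and 11.7 normalised counts with BAQ13 NPs against 3.19, 1.04 and 0.933 with Lys05, that is 61 reads against 5, a ratio of 10.8 with a 95% counting interval of 4.38 to 34.4. With 3, 1 and 1 reads in the Lys05 libraries, it passed the filter only through the BAQ13 libraries. The glucose transporter SLC2A6, found on lysosomes, rose from 19.2, 22.9 and 28.9 to 105, 101 and 118 with vehicle at 29.1, 22.3 and 18.4 (2.16, adjusted p = 2.3e-07). VASH2, a tubulin carboxypeptidase, rose from 12.8, 4.17 and 7.47 to 39.2, 24.6 and 43.6 (2.08, adjusted p = 0.0022). Its Lys05 libraries alone would not have carried it past the filter. The cytokine receptor IL21R and GGT7 passed on few reads (1.96 and 1.78, adjusted p = 0.017 and 0.031). IL21R had 18, 25 and 19 reads with BAQ13 NPs and 4, 2 and 7 with Lys05, so it could not pass the filter through Lys05. Both genes lost their calls without Lys05 replicate 2 or BAQ13 replicate 2, IL21R also without Lys05 replicate 1 (up to 0.1 and 0.18).

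Among the 15 largest falls, the antigen peptide transporter TAP2 went from 40.5, 37.5 and 41.1 to 11.2, 23.7 and 16.8 normalised counts (-1.22, adjusted p = 0.002) and the urokinase receptor PLAUR from 31.9, 34.4 and 18.7 to 13.1, 11.8 and 9.22 (-1.21, adjusted p = 0.0042). The largest falls were picked among genes whose groups did not overlap. The calls of TAP2 and PLAUR held without any 1 library. RP3-368A4.5 fell by 2.01 on the log2 scale (adjusted p = 0.0054). The collagen gene COL4A6, the RNA methyltransferase NSUN3, the sulfotransferase CHST14, C5orf15, RTEL1-TNFRSF6B, CDC37L1-AS1, the deoxycytidine kinase DCK and the cell cycle regulator LIN9 fell by 1.12 to 1.48 on the log2 scale, with adjusted p from 0.021 to 0.048. These 8 had at most 29.2 normalised counts in any Lys05 or BAQ13 library, and each lost its call without Lys05 replicate 2, among others (adjusted p up to 0.21 for CDC37L1-AS1). With values this low, some of them may have passed the filter on low counts only through the groups where they are higher. This was not checked gene by gene. The readthrough transcript RTEL1-TNFRSF6B shares reads with its parent genes, and CDC37L1-AS1 is antisense to another gene, so both values are uncertain.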

How the data were processed

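RNA-seq libraries, 15 in all, were made from MIA PaCa-2 cells. The labels name a QuantSeq 3′ mRNA kit, and the study's methods a directional paired-end kit. Per the labels' processing notes, reads were mapped to GRCh38 with STAR, counted with HTSeq and scaled with DESeq2, with no versions given. The deposited values are a signal, that is, read counts per gene scaled by the authors with 1 size factor for each library, for 60107 gene IDs and 92 spike-ins that held no reads. The reads were recovered by undoing the scaling, and 100% of values were whole within 0.01. Coordinates follow GENCODE 29.

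The main fit used limma 3.58.1 (R 4.3.3) on log2(value + 1) of the 9 vehicle, Lys05 and BAQ13 libraries, with a variance trend and genes kept by filterByExpr (minimum count 10, total 15). Replicate 3 of BAQ12 was known from earlier results of these data to stand apart. Within BAQ12, the lowest r with another library of the group was 0.930 for replicates 1 and 3 and 0.939 for replicate 2. These values are below the 0.967 to 0.981 of the 9 libraries but do not single out replicate 3. BAQ12 was kept out of the main fit. BAQ12O, whose libraries did not stand apart, was left out with it, and a fit of 14 libraries that keeps both agents is among the alternatives. Alternatives included edgeR 4.0.16, DESeq2 1.42.0 and fits without single libraries, and all tests were tried on simulated data. Genes named were the 15 largest rises and the 15 largest falls called, list members by fixed counts and genes the study names. The rises and falls were taken only where the BAQ13 and Lys05 libraries did not overlap. Further list members were named after their values were seen. The comparison and the lists were chosen with earlier results of these data known, and 3 genes of the sterol lists are not reported here.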

Additional observations from a re-analysis of the deposited data

How the results depend on the processing

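The number of genes called, 666 at an adjusted p below 0.05 in limma, was 667 with edgeR on the recovered reads (634 of them shared) and 642 with TMM scaling. It was lower with DESeq2 (355, of which 237 higher and 118 lower), with only the 6 libraries compared (390, with 262 higher and 128 lower) and with all 15 libraries (279, with 197 higher and 82 lower), and 811 with 14 libraries. Leaving out 1 library gave 317 to 1153 calls, 216 to 575 of them higher and 101 to 578 lower. At the study's threshold, 132 genes became 68 with a pseudocount of 5, 532 with no filter on low counts, when 20923 genes were tested, and 58 with at least 10 reads in every library, when 8789 were tested, and 136 to 217 without 1 library. The cause of these shifts was not tested. Same-numbered libraries of the 3 groups did not deviate together (r from -0.166 to 0.109), so the numbers do not pair them, and a replicate block gave 548 calls, 543 of them shared. Of 117 named genes that passed, none changed direction under any alternative, while 26 lost the call with DESeq2, which gave no adjusted p for 17 more, 35 with the 6 libraries and 57 with all 15. These genes had passed in the main fit, and each alternative reused its libraries or most of them, so a change of direction was unlikely. Over all alternatives 6 to 7 mevalonate enzymes, 10 to 11 squalene to cholesterol enzymes and 11 to 12 mitochondrial mRNAs were called higher. The V-ATPase subunits called numbered 1 to 5 and the S phase genes called lower 1 to 8. With 1948633 to 2497422 reads on genes in the 6 libraries compared, genes with few reads, such as ABCA1 (8 and 44 reads), have wide intervals.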
